A study of Saccharomyces cerevisiae with 6 samples.

Results

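The genes described here are the nuclear protein-coding genes of budding yeast that have an intron and do not encode a ribosomal protein. They were taken from the R64 annotation as genes with 2 or more coding (CDS) segments, leaving out symbols of ribosomal protein genes and genes that overlap a mobile element. This gave 186 of 6002 nuclear protein-coding genes. The comparison group was the 5632 intronless genes, and the 88 intron-containing ribosomal protein genes were used once for contrast.

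Nic96 ChIP-seq was performed in BY4742, an S288C-derived strain of mating type alpha. All strains had the his3∆1, leu2∆0, lys2∆0 and ura3∆0 alleles and carried the plasmid pRS313. Peak lists of 2 of the 6 libraries are used, both from cells shifted from 25 °C to 37 °C for 15 min. In the *wt* library, *NIC96* carried a 13myc tag with the KanMX marker. In the *tho* library the same tagged protein was expressed in *mft1*∆ cells, which lack a subunit of the THO complex. Each list was called against the untagged strain of the same genotype at 37 °C. There was 1 library per condition, so that no value below has a replicate check and no p-value compares *wt* with *tho*. Peaks were kept when their q-value was under 0.05, which left 993 *wt* and 571 *tho* peaks on the nuclear chromosomes. A gene was counted as having a peak when at least 1 base of it, from start to stop codon, lay under one.

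In budding yeast most genes lack introns, and those that have one usually have a single short intron close to the start codon. The spliceosome recognises a 5′ splice site, a branch point and a 3′ splice site in the nascent transcript. THO acts on the same nascent transcript and couples transcription to mRNA packaging and export. Nic96 is a structural protein of the nuclear pore complex (NPC), in its inner ring, so that a Nic96 peak marks DNA recovered with that part of the pore.

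The 186 genes had 191 introns of 49 to 1002 bases (median 97), and 175 of these began before the midpoint of their gene. The median first CDS segment was 41.5 bases, and it was under 100 bases in 131 genes. In *EST3*, *ABP140* and *OAZ1* the annotated gap is 1 base, as for a programmed frameshift, and it was not counted as an intron. The hexamer GTATGT stood at the 5′ end of 134 of 177 introns away from chromosome ends (75.7%), against 73.0% of 281 introns when the ribosomal protein genes and all others were included. The branch motif TACTAAC was present in 134 of the 177 (75.7%), against 82.6% of the 281. Both motifs were read only on the coding strand, the one that reads as the RNA does, and they do not overlap each other.

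Introns and junctions of some genes described below are printed from the R64 assembly (sacCer3), 5′ to 3′ on the coding strand. The first 2 are the whole introns that lay under *tho* peaks, with the first 6 and last 3 bases in capitals. Neither holds TACTAAC. They lie at chrXVI:96154-96233 (minus strand) and chrXVI:833694-833827 (plus strand).
CIN2 intron: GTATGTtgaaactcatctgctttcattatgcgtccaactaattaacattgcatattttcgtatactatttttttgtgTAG
MAY24 intron: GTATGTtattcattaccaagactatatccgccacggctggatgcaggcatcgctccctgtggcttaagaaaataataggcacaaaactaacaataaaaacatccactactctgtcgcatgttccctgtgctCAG
The next 4 are windows of 30 bases over the 5′ splice site of genes with a *wt* peak in a CDS segment, with the first 6 intron bases in capitals. The peaks of *DBP2* and *YRA1* lay before this site. Those of *EFB1* and *HRB1* lay past or across the other end of the intron, which is not printed.
DBP2 junction: ccagaggtatcgGTATGTtaaaattttctc
YRA1 junction: gatgctgtaagaGTATGTtaatacgtgaaa
EFB1 junction: atacattgaaggGTATGTtccgatttagtt
HRB1 junction: ggttcagaaaacGTATGTttcattgataag
The last 2 are introns of genes at chromosome ends, where 1 sequence serves several genes. The 148-base intron is identical in *YRF1-3*, *YRF1-6* and *YRF1-7*, and the 99-base intron in *YBL111C*, *YHR218W*, *YLL066C*, *YLL067C* and *YML133C*. Capitals mark the first 6 bases, TACTAAC and the last 3 bases.
YRF1 intron: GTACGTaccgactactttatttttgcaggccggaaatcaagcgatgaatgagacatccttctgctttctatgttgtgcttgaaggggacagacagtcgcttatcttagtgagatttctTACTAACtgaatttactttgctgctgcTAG
YBL111C intron: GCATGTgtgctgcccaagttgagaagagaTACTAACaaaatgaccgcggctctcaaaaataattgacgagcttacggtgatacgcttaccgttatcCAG

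After heat shock, 27 of the 186 genes had a Nic96 peak in *wt* and 10 in *tho*. The *wt* share was 14.5% (exact 95% interval 9.79 to 20.4), against 13.2% of all nuclear protein-coding genes and 11.2% of intronless genes weighted to the same gene lengths. The *tho* share was 5.38% (2.61 to 9.66), against 7.46% of all genes and 7.47% of length-weighted intronless genes. A peak in both lists was found for 9 genes (4.84%), against a background of 2.72%. A peak in *wt* only was found for 18 genes (9.68%), close to the 10.5% of all nuclear protein-coding genes. A peak in *tho* only was found for 1, *MAY24* (0.538%), against 4.75% of all genes. The other 158 genes had none in either list.

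These counts join 2 kinds of gene. In all, 14 of the members lay within 20 kb of a chromosome end, all at most 10676 bp from it, and each of these 14 genes consisted mostly of sequence that occurs more than once in the genome. The other 172 were at least 22047 bp from an end, and none was mostly repeated. The 172 had a median length of 883.5 bp and the 14 a median of 3717 bp, against 1215 bp for intronless genes. The 2 kinds are described separately below, a split made at a distance of 20 kb.

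Away from chromosome ends, 16 of 172 genes had a *wt* peak. This was 9.30% (5.41 to 14.7), close to the 8.79% of intronless genes of like length, which corresponds to 15.1 genes. The share over all genes in these regions was 12.2%. The 16 genes were long: their median length was 1988 bp, against 767 bp for the 156 without a *wt* peak. None of the 35 genes under 500 bp and none of the 39 of 500 to under 750 bp had a *wt* peak, while 6 of the 12 genes of 2500 to under 4000 bp did (50%, interval 21.1 to 78.9). The share did not climb steadily in between, with 4 of 30 at 750 to under 1000 bp (13.3%), 1 of 37 at 1000 to under 1500 bp (2.70%) and 5 of 19 at 1500 to under 2500 bp (26.3%). The share of intronless genes rose in each class, from 4.33% under 500 bp to 27.8% at 2500 to under 4000 bp. In every length class the interval of the intron-containing genes held the intronless share.

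**Figure D1:**
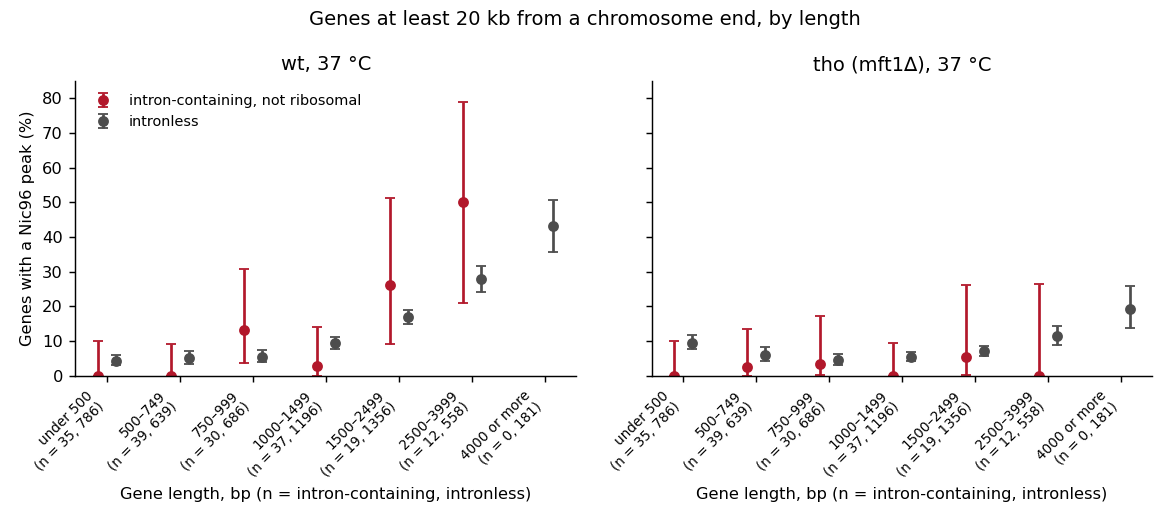
Share of genes with a Nic96 peak (y axis, percent) by gene length (x axis, bp) for intron-containing genes outside the ribosome and intronless genes at least 20 kb from a chromosome end, in *wt* (left) and *tho* (right). Points are shares, bars are exact 95% intervals that cover counting of genes only, and the 2 numbers under each class are the genes of each kind; in *wt* the intronless share rose in each class, the intron-containing share was 2.70% at 1000 to under 1500 bp and 50% in its longest class, and in *tho* at most 1 intron-containing gene per class had a peak.

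In *tho*, only *HRB1*, *CIN2* and *MAY24* of the 172 genes had a peak. This was 1.74% (0.361 to 5.01), below the 6.88% of intronless genes of like length, which corresponds to 11.8 genes and lies outside the interval. The share over all genes in these regions was 7.16%. When a gene was counted only if it held the summit of the peak, the same 3 genes remained but the intronless share was 3.62%, which the interval holds. *HRB1* and *CIN2* had a peak in both lists, 1.16% of the 172, against a background of 2.48% and 1.64% of intronless genes of like length. The intron-containing ribosomal protein genes had a *wt* peak in 2 of 88 cases (2.27%, 0.276 to 7.97) and a *tho* peak in 1 (1.14%, 0.0288 to 6.17). Both intervals held the shares of like-length intronless genes, 6.18% and 5.03%. Transcription level was not measured in the files used here and was not held equal between these classes of gene.

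The *wt* peaks at these genes lay entirely in coding sequence. The 16 genes carried 17 *wt* peaks of 240 to 668 bp (median 399), with a fold enrichment over the untagged strain of 1.46 to 2.47 (median 1.76). Each of the 17 peaks fell inside 1 CDS segment, without crossing a splice junction, a start codon or a stop codon. Of the *wt* peaks at intronless genes, 708 of 776 (91.2%) lay inside the gene, a share that the interval for 17 of 17 holds (80.5 to 100). The 177 introns of these genes held 0 of 26256 bases under *wt* peaks. The same relative positions in intronless genes of like length had 2.71% of their bases under *wt* peaks. Within the 16 genes with a peak, introns made up 16.4% of the bases and held none of the 6836 bases under peaks. The introns of the ribosomal protein genes likewise had 0 of 36786 bases under *wt* peaks, and relaxing the q-value threshold to all deposited peaks left both values at 0.

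**Figure D2:**
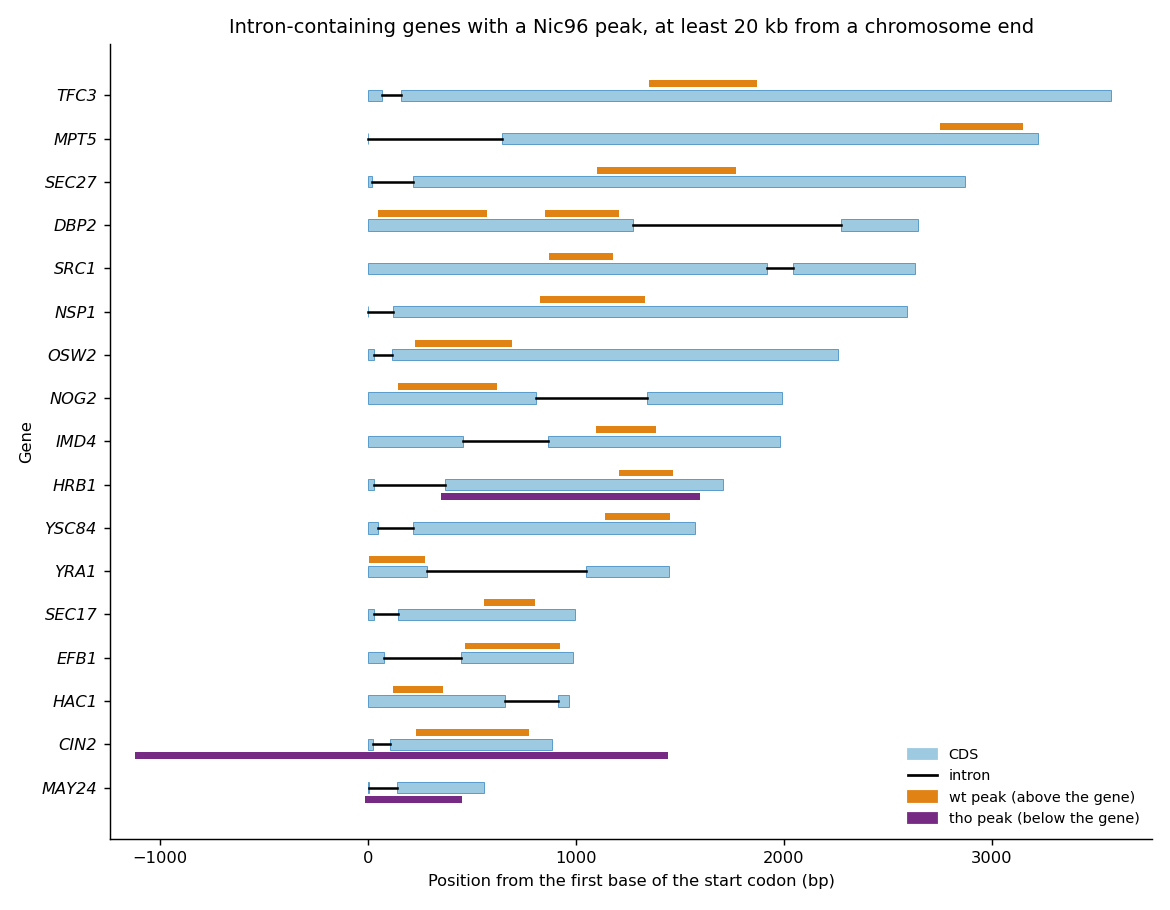
Maps of the 17 intron-containing genes with a Nic96 peak in either list, at least 20 kb from a chromosome end, in bp from the first base of the start codon and drawn in the direction of transcription. Boxes are CDS segments, black lines introns, orange bars *wt* peaks and purple bars *tho* peaks; no orange bar overlaps an intron, and the purple bars of *CIN2* and *MAY24* cover the whole intron.

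Base composition moved with this result. In intronless genes away from chromosome ends, 0.252% of the bases in 100-base windows with under 30% GC were under *wt* peaks, 2.31% in windows of 35 to 40% GC, and 10.7% in windows of 50% GC or more. Introns were poor in GC, with a median of 32.4% (18.3 to 50.7), and 56 of the 177 were under 30%. CDS of the same genes had 42.6% GC under *wt* peaks and 39.2% outside them. Weighted to the GC content of the introns in place of relative position, intronless windows had 1.47% of their bases under *wt* peaks instead of 2.71%. Position and GC content were not held together. Over 26256 intron bases these shares amount to 386 and 710 bases. The median *wt* peak was 385 bp wide, while the median of these introns was 95 bases. A peak over an intron would thus usually have only part of its width there. These bases therefore do not convert to a number of peaks, which was not computed. None of the introns contained a repeated 75-base sequence. The part of base composition in the peak calls themselves was not tested.

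**Figure D3:**
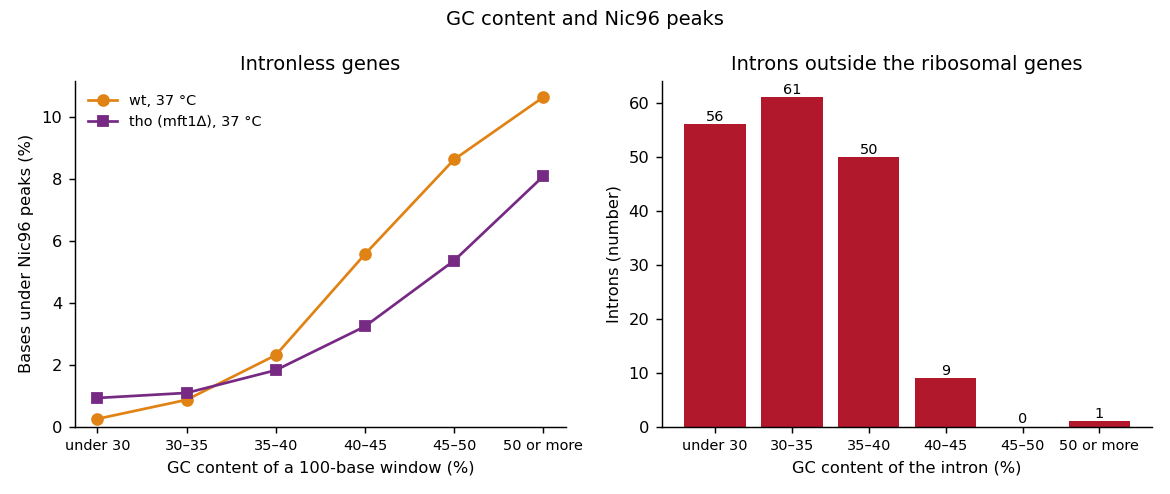
Left, share of bases under Nic96 peaks (y axis, percent) in 100-base windows of intronless genes at least 20 kb from a chromosome end, by GC content of the window (x axis, percent), in *wt* and *tho*. Right, number of introns (y axis) of the 172 intron-containing genes by GC content (x axis, percent); coverage rose with GC in both lists, and 167 of the 177 introns were under 40% GC.

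First CDS segments gave the opposite value. In *wt*, 9.03% of the 24091 bases in first segments were under peaks, against 2.94% at the same positions in intronless genes, while later segments were close to them (3.55% against 3.86%). The first-segment bases came from 5 genes whose first segment is unusually long, *SRC1* (1920 bp), *DBP2* (1273 bp), *NOG2* (810 bp), *HAC1* (661 bp) and *YRA1* (285 bp). *DBP2* alone gave 879 of the 2176 bases. In *tho*, first segments had 0.125% of their bases under peaks (2.53% in intronless genes), introns 0.884% (3.02%) and later segments 1.77% (3.09%). Weighted to the GC content of the introns in place of relative position, intronless windows had 1.43% of their bases under *tho* peaks instead of 3.02%.

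**Figure D4:**
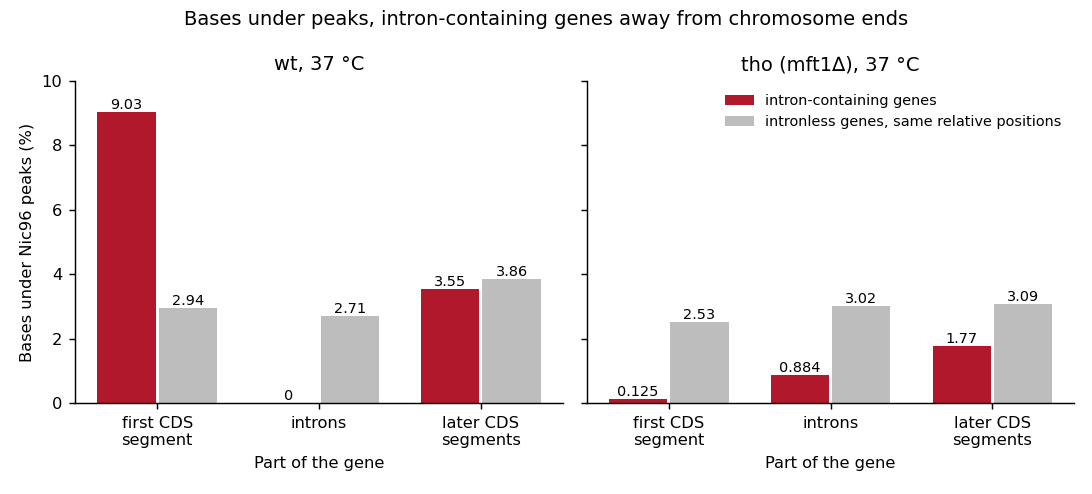
Share of bases under Nic96 peaks (y axis, percent) in first CDS segments, introns and later CDS segments of the 172 intron-containing genes, beside intronless genes of like length at the same relative positions, in *wt* (left) and *tho* (right). The *wt* bar for introns is at 0, and the *wt* bar for first segments stands at 9.03%, from 5 genes.

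*DBP2* had the only pair of *wt* peaks in a single gene away from chromosome ends. It encodes a DEAD-box RNA helicase and has the longest intron of the set (1002 bases), which begins only after a first segment of 1273 bases (chrXIV:413639-416281, plus strand). Its peaks were 522 bp (1.72-fold, −log10 q 3.21) and 357 bp wide (1.94-fold, −log10 q 3.69). The second ended 64 bases before the junction printed above. The nearest *tho* peak was 26522 bp away.

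*YRA1* encodes an RNA-binding mRNA export adaptor that works together with THO. Its 270-bp *wt* peak (1.64-fold, −log10 q 2.71) covered 270 of the 285 bases of the first segment and ended 9 bases before the 766-base intron (chrIV:1236558-1238004, plus strand). No *tho* peak lay within 13761 bp. *HAC1*, the transcription factor of the unfolded protein response, has an intron that Ire1 and not the spliceosome removes, and its first 6 bases are CCGTGA instead of GTATGT. Its 240-bp *wt* peak (1.61-fold, −log10 q 1.98) ended 301 bases before that intron.

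*NOG2* and *SRC1* also had their *wt* peak in the first segment. *NOG2* encodes a GTPase of large ribosomal subunit assembly, and its 478-bp peak was 1.79-fold enriched (−log10 q 2.98). *SRC1* encodes an inner nuclear membrane protein, and its 309-bp peak was 1.76-fold enriched (−log10 q 2.90). These peaks were 188 and 739 bases from the intron.

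The remaining 11 genes with a *wt* peak had it downstream of the intron. *EFB1*, the nucleotide exchange factor of translation elongation, had the peak closest to its intron on that side. It was 458 bp wide, began 19 bases after the intron and covered 46.4% of the gene, but it was weak (1.46-fold, −log10 q 1.43, rank 971 of 993 by fold). Its neighbour 742 bp away is *SSA1*, an Hsp70 gene with 96.7% of its bases under *wt* peaks and 100% under *tho* peaks. The *tho* peak there ended 123 bp short of *EFB1*.

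*TFC3*, a subunit of the RNA polymerase III factor TFIIIC, had a 520-bp *wt* peak of 2.34-fold (−log10 q 6.71), rank 50 of 993 by fold and 1192 bases past its 90-base intron. *NSP1* encodes an FG-nucleoporin that forms a pore subcomplex with Nic96 itself, and its 504-bp peak was 1.79-fold enriched (−log10 q 3.06). The other 6 besides *HRB1* and *CIN2* were *SEC17* (alpha-SNAP, 1.83-fold), *MPT5* (a Puf mRNA-binding protein, 1.73-fold), *SEC27* (a coatomer subunit, 1.62-fold), *YSC84* (an actin-binding protein, 1.86-fold), *OSW2* (a spore wall gene, 1.70-fold) and *IMD4* (IMP dehydrogenase, 1.81-fold). Their −log10 q values ran from 1.47 for *SEC27* to 2.63 for *SEC17* and *YSC84*.

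*CIN2*, whose product acts in tubulin folding, had the highest fold enrichment of the set in both lists (chrXVI:95372-96258, minus strand). In *wt* its peak was 542 bp wide and 2.47-fold enriched (−log10 q 8.17, rank 36 of 993), and it covered 61.1% of the gene. In *tho* it was 2564 bp wide and 7.69-fold enriched (−log10 q 166, rank 6 of 571), and it covered all 887 bases of the gene with its 80-base intron. The summits were 5 bases apart. The *tho* peak was not confined to *CIN2*: it also covered 882 bp of *HSP82*, the Hsp90 gene that ends 237 bp upstream of *CIN2* on the same strand, and 296 bp of *IQG1* on the other side. *HSP82* had 58.5% of its bases under *wt* peaks and 56.7% under *tho* peaks.

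*HRB1* encodes an SR-like mRNA-binding protein that travels with the export machinery (chrXIV:622915-624621, plus strand). In *wt* its peak was 255 bp wide (1.66-fold, −log10 q 1.75), and in *tho* it was 1245 bp wide (2.21-fold, −log10 q 11.4) and covered 72.9% of the gene. The *tho* peak contained the whole *wt* peak, had its summit 228 bases nearer to the start codon, and reached 18 bases into the 342-base intron. Both genes away from chromosome ends found in the 2 lists thus had a wider peak with a higher fold value in *tho*, in 1 library each. The lists were called separately, and the *tho* list as a whole had higher values. Its median peak was 449 bp wide and 1.89-fold enriched, against 385 bp and 1.76-fold in *wt*.

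*MAY24* was the only gene with a peak in *tho* alone and the only one whose summit fell in an intron (chrXVI:833689-834245, plus strand). The peak was 467 bp wide and 1.84-fold enriched (−log10 q 4.77), began 14 bases before the start codon and covered 81.3% of the gene with all 134 intron bases. The summit lay 52 bases from the start codon, within the intron printed above. That intron has 44.0% GC, above the median of 32.4%. The nearest *wt* peak was 460 bp away, in *PIN3*.

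The summits of the 17 *wt* peaks had a median relative position of 0.410 between start codon (0) and stop codon (1), from 0.112 to 0.885, and 6 of 17 lay past the middle. In intronless genes the median was 0.571 for *wt* with 58.8% past the middle, and 0.773 for *tho* with 72.6% past it. Of the 17 summits, 11 lay in later CDS segments and 6 in first segments.

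Genes with a long intron had *wt* peaks more often, but they were few and also longer. A *wt* peak was present in 7 of 140 genes whose longest intron was 20 to under 200 bases (5%, with 7.67% of like-length intronless genes), and in 4 of 19 with 200 to under 400 bases (21.1%, with 13.5%). It was present in 5 of 10 with 400 bases or more (50%, interval 18.7 to 81.3, with 15.6%). That interval does not hold the 15.6% of like-length intronless genes, but the classes of intron length were chosen after the data were seen. The 5 genes were *DBP2*, *YRA1*, *MPT5*, *NOG2* and *IMD4*. The others were *GCR1*, *GLC7*, *BUD25*, *YBR219C* and *YJR079W*, of which *GCR1* had a deposited *wt* peak with a q-value above 0.05. None of the 10 had a *tho* peak (interval 0 to 30.8), and the interval holds the 7.42% of like-length intronless genes.

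A small nucleolar RNA lies in the intron of 5 members. *EFB1* (SNR18), *IMD4* (SNR54) and *NOG2* (SNR191) had a *wt* peak, each in a CDS segment and none over the intron with the RNA, while *ASC1* (SNR24) and *TEF4* (SNR38) had none. The share over all genes away from chromosome ends was 12.2% in *wt*. The 5 hosts had a median length of 1565 bp, and 16.9% of intronless genes of 1500 to under 2500 bp had a *wt* peak. *EFB1* was shorter (987 bp), and 5.39% of intronless genes of 750 to under 1000 bp had one. No host had a *tho* peak, against 7.16% of all genes in these regions, so that 0 of 5 is not informative.

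By role, *wt* peaks were spread thinly over 8 lists drawn up by hand from general knowledge. They were found in 2 of 12 genes of mRNA processing and export (*YRA1* and *DBP2*), with 1.3 given by intronless genes of like length, and in 1 of 6 translation factors (*EFB1*, with 0.471). Secretory and vacuolar traffic had 2 of 22 (*SEC17* and *SEC27*, with 1.47). A mixed list of stress, signalling and other metabolic genes had 3 of 19 (*HAC1*, *MPT5* and the nucleotide synthesis gene *IMD4*, with 1.96). The cytoskeleton had 1 of 15 (*CIN2*, with 1.2) and meiosis and mating type 1 of 15 (*SRC1*, with 1.96). None of 9 ubiquitin and proteasome genes had a *wt* peak, with 0.455 given by intronless genes of like length. A list of 9 genes drawn up as mitochondrial had none either (with 0.58). It included the kinase gene *MRK1*, the tRNA deaminase gene *TAD3* and the ubiquitin-conjugating gene *MMS2*, which do not carry that role. In *tho*, *CIN2* was the only gene with a peak in any of these 8 lists. Intronless genes of like length gave 0.338 to 1.39 genes per list there. Most genes with a peak were in no list, 17 of 27 in *wt* and 9 of 10 in *tho*. *HRB1* was among them, although it encodes an mRNA-binding protein that travels with the export machinery. The counts for mRNA processing and export leave it out.

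Several much-studied spliced genes had no peak in either list, which held for 155 of the 172 genes away from chromosome ends. *HAC1*, *DBP2*, *EFB1* and *YRA1*, from the same list of examples, did have a *wt* peak. The actin gene *ACT1* was 12448 bp from the nearest *wt* peak and 13594 bp from the nearest *tho* peak. For the ribosome-associated scaffold gene *ASC1* these distances were 14514 and 12021 bp, and for the alpha-tubulin gene *TUB1* they were 3793 and 20220 bp. The phosphatase gene *GLC7* was 4213 and 28053 bp away, and the ubiquitin-conjugating enzyme gene *UBC4* 2993 and 8296 bp. *SUS1*, which has 2 introns and encodes a subunit of the export complex TREX-2, was 6437 and 3508 bp away. The meiotic recombinase gene *DMC1* was closest, at 451 and 1498 bp.

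The 14 genes near chromosome ends lie in Y′ elements, the repeated subtelomeric blocks whose longest genes encode helicase-like proteins. In *wt* 11 of the 14 had a peak (78.6%, interval 49.2 to 95.3), against 36.2% of all genes within 20 kb of an end and 64.5% of intronless genes there of like length. In *tho* 7 of the 14 had one (50%, 23.0 to 77.0), against 14.6% and 37.6%. All 7 had a peak in both lists, against a background of 8.13%. Intronless genes there of like length gave 32.0%, which the interval of 23.0 to 77.0 holds. In *YRF1-3* and *YML133C* the *tho* peak overlapped none of the *wt* peaks kept. The 3 genes with no peak in either list were *YBL111C*, *YHR218W* and *YPR202W*. The intervals treat the 14 genes as independent, which they are not, since all consisted mostly of repeated sequence. The like-length reference was also thin, with 8 intronless genes of 4000 bp or more near chromosome ends.

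The peaks over Y′ genes covered different amounts in the 2 lists. The 28 *wt* peaks covered 20.2% to 75% of the 11 genes (median 59.9%), and the widest was 3158 bp over *YJL225C* (1.76-fold), first of 993 by width. The 8 *tho* peaks covered 1.4% to 9.91% of the 7 genes (median 6.62%). Of these, 6 had their summit in the gene, all at a relative position of 0.957 to 0.980, that is 116 to 122 bases from the stop codon. The other 2 had it outside the gene, before the start codon of *YRF1-3* (2.51-fold) and *YRF1-6* (2.43-fold). In *wt* the summits spread over the genes, from 0.147 to 0.980.

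**Figure D5:**
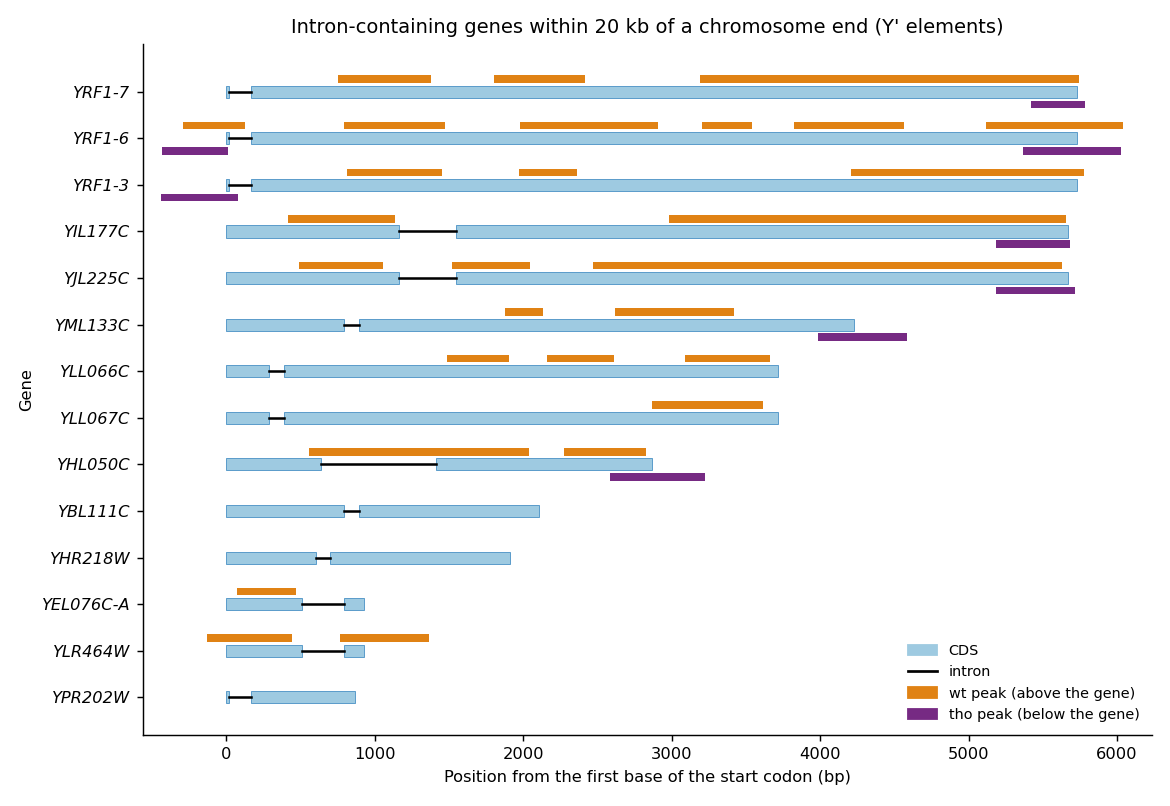
Maps of the 14 intron-containing genes within 20 kb of a chromosome end, in bp from the first base of the start codon and drawn in the direction of transcription. Boxes are CDS segments, black lines introns, orange bars *wt* peaks and purple bars *tho* peaks; purple bars sit at the 3′ ends of 6 genes and at the start of *YRF1-3* and *YRF1-6*, and orange bars cover large parts of 11.

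Introns in Y′ genes did lie under peaks. In *wt* 4 of their 14 introns were touched, with 773 of 773 bases in *YHL050C*, 108 of 148 in *YRF1-6*, 28 of 279 in *YLR464W* and 26 of 388 in *YJL225C*. In *tho* 1 was touched, with 61 of 148 bases in *YRF1-3*. The *YRF1-3*, *YRF1-6* and *YRF1-7* introns are the same sequence, so that a read from it fits each of these genes equally, and their values are not independent. All 28 *wt* and all 8 *tho* peaks here consisted mostly of repeated sequence. Which copy of a Y′ gene the recovered DNA came from cannot be told apart.

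The values just on either side of the q-value threshold were as follows. The weakest *wt* peaks kept away from chromosome ends were those of *EFB1* (−log10 q 1.43) and *SEC27* (1.47). Another 4 genes had a deposited *wt* peak that did not pass, *LSB3* (1.14), *ERV41* (1.14), *YKR005C* (0.955) and *GCR1* (0.843). Their fold enrichments of 1.37 to 1.58 overlapped those of the kept peaks, and none of the 4 lay over an intron.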

How the data were processed

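Nic96-myc ChIP-seq peak lists of *wt* and *tho* cells at 37 °C were used, and the libraries at 25 °C were not analysed here. Reads were aligned by the authors to the sacCer3 genome (Bowtie2, no mismatch allowed), duplicates were dropped (SAMtools) and each tagged library was compared with its untagged control in MACS2. The authors' fold enrichment per peak is a ratio of tagged over untagged signal. The p-value and q-value of a peak were deposited as −log10, and the score as 10 times the former, cut to a whole number. Read numbers are not given in the sources used here, so the depth is unknown. The methods state q under 0.05, which not all deposited peaks meet, and this threshold was applied.

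Starts were converted to count from 1. Gene models and sequences came from RefSeq R64. Length weighting used 7 length classes of intronless genes, and positions 20 bins per class. Intervals are exact (Clopper-Pearson, 95%) and cover counting only. Genes named are those with a peak, the widest cover or a summit in an intron, and a list of examples. The members and lists were chosen with earlier results of these data known. Leaving out genes within 20 kb of a chromosome end was planned as an alternative. Describing the 2 sides apart, the GC windows and the classes of intron length were chosen after the data were seen. Scripts were tested on simulated peaks and ran in Python 3.11.15 with pandas 2.3.3, numpy 2.4.6, matplotlib 3.10.9 and scipy 1.17.1.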

Additional observations from a re-analysis of the deposited data

How the results depend on the processing

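Of 92 alternative values of the main results, 12 moved, and 80 stayed within 1.5 times a count or within the exact interval of a share, an interval wide enough to hold shifts of over 1.5 times. Without genes within 20 kb of a chromosome end, 16 genes had a *wt* peak, 3 a *tho* peak and 2 both, and 0% of intron bases lay under *wt* peaks. Without peaks made mostly of repeated sequence the counts were the same (16, 3, 2 and 0%). When peaks had to cover at least 20% of the gene, 3 genes had a *tho* peak and 1 both, and 9 genes away from chromosome ends had a *wt* peak. With the summit required inside the gene, the share of like-length intronless genes away from chromosome ends with a *tho* peak was 3.62%. Shifts of that size inside the interval were those of intronless shares. Like-length genes with a *wt* peak went from 11.2% to 7.33% at q under 0.01 and 7.16% at 20% cover, and with a *tho* peak from 7.47% to 4.24% with the summit inside. Away from chromosome ends, q under 0.01 took the *wt* share of genes from 8.79% to 5.45% and of same-position bases from 2.71% to 1.77%. Like GC in place of position gave 1.47% of bases in *wt* instead of 2.71%, and 1.43% in *tho* instead of 3.02%. Values for genes away from chromosome ends were computed under alternatives chosen after seeing the data. No paired analysis was possible because each condition had 1 library. Transcription level was not held equal, and reads of Y′ genes cannot be assigned to 1 copy.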
